A study of Mus musculus with 4 samples.

Results

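The immediate early response genes studied here are Fos, Fosb, Jun, Junb, Egr1, Ier2, Ier3, Atf3, Dusp1 and Btg2. They were taken by name, as every probe set of the array whose only gene symbol is one of these 10, which gave 12 probe sets of 34945 with a single symbol, and 10 genes of 18193. RNA was measured on 4 Affymetrix arrays, 1 for each kind of mouse cell. The array labelled HB9-GFP+ holds cells sorted on day 8 for green fluorescent protein, from embryonic stem (ES) cells that carry it as a reporter of HB9, a motor neuron transcription factor. Per the labels these cultures received Sonic hedgehog, retinoic acid (0.1 uM) and purmorphamine (0.2 uM) between days 5 and 9, and day 9 is later than the sort. The granule array holds cerebellar granule cells of postnatal day 6, and the Sox1 array holds sorted Sox1 neural stem cells, whose origin the labels do not state. The ES array holds undifferentiated ES cells, and the growth protocol given with every sample keeps the HB9 ES cells with 1000 U per ml of leukemia inhibitory factor on a feeder layer of embryonic fibroblasts stopped with mitomycin. Strain, sex and whether the reporter line is a single clone are not given in the sources used here.

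Immediate early genes are switched on within minutes of a stimulus, without new protein synthesis, when kinases such as the MAP kinases activate factors already bound at their promoters, among them SRF with its Elk partners and CREB. Fos and Jun family proteins pair to form the AP-1 transcription factor, Egr1 is a zinc finger activator, and Dusp1 feeds back by removing phosphate from MAP kinases. In neurons the same genes respond to firing and growth factors, and in many tissues they also respond to handling and dissociation of cells.

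The values are deposited linear intensities, called signals below. Signals were compared on the log2 scale after values under a low level of 78.8 were set to it. A gene was detected on an array at a signal of at least 157.5. A call of higher or lower needed detection on the brighter of the compared arrays and a 4-fold difference, 2 on the log2 scale. Each group has a single array, so no replicate error exists, nothing was tested, and each difference is one between these arrays. As a technical yardstick, the SD of log2 differences over 18 hybridisation control probe sets was 0.06 to 0.11, and the pooled SD among the probe sets of a gene was 0.56 to 0.85 over the 6 comparisons. The number of genes detected was 9330 to 9518 per array. On the array labelled HB9-GFP+, 1 of 10 motor neuron markers was detected, Olig2, and all 14 pluripotency markers were, as they were on the ES array, so the values go against its label. The Sox1 array had all 10 neural stem cell markers detected, against 5 on the HB9-GFP+ labelled array, 7 on granule and 6 on ES. It also had 9 of the 14 pluripotency markers detected, with a summed signal of 19080.5, against 108124 on ES. The granule array had 9 of 11 granule neuron markers detected, against 3 on the HB9-GFP+ labelled array, 7 on Sox1 and 5 on ES.

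Most of the immediate early genes were lowest in undifferentiated ES cells and highest in granule cells, in both cases some by small margins. With values under the low level set to it, 7 of the 9 members detected anywhere had their lowest signal on the ES array, where 19.2% of all detected genes had theirs. The exceptions were Fosb, which lay under the low level on both the HB9-GFP+ labelled and the ES array, and Ier3, which was lowest on the Sox1 array, as 15.0% of genes were. Ier2, counted as lowest on ES, was too close to order between Sox1 and ES, at a log2 difference of 0.08. The granule array had the highest signal for 7 of the 9, against 28.4% of all detected genes, and the exceptions were Ier3 and Dusp1, the second with 3 arrays too close to order. Fos, among the 7, was also too close to order between granule and Sox1, at a log2 difference of 0.03. Btg2 is among them too, although its second probe set was highest on the Sox1 array, at 906.3 against 823.6 on granule. Centring on reference genes put the granule array highest for 9 of the 10 members, all but Ier3, and for 53.9% of all detected genes. These 9 include Junb, which is outside the 9 counted above. The array labelled HB9-GFP+ had 8 of the 10 members detected, the granule array 9, the Sox1 array 9 and the ES array 6. Junb, a member of the Jun family, was detected on none, at 136.4, 153.3, 97.4 and 108.8 in the same order, and is not interpreted further. In bulk RNA, fewer cells that express a gene and less of its RNA per cell cannot be told apart.

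**Figure D1:**
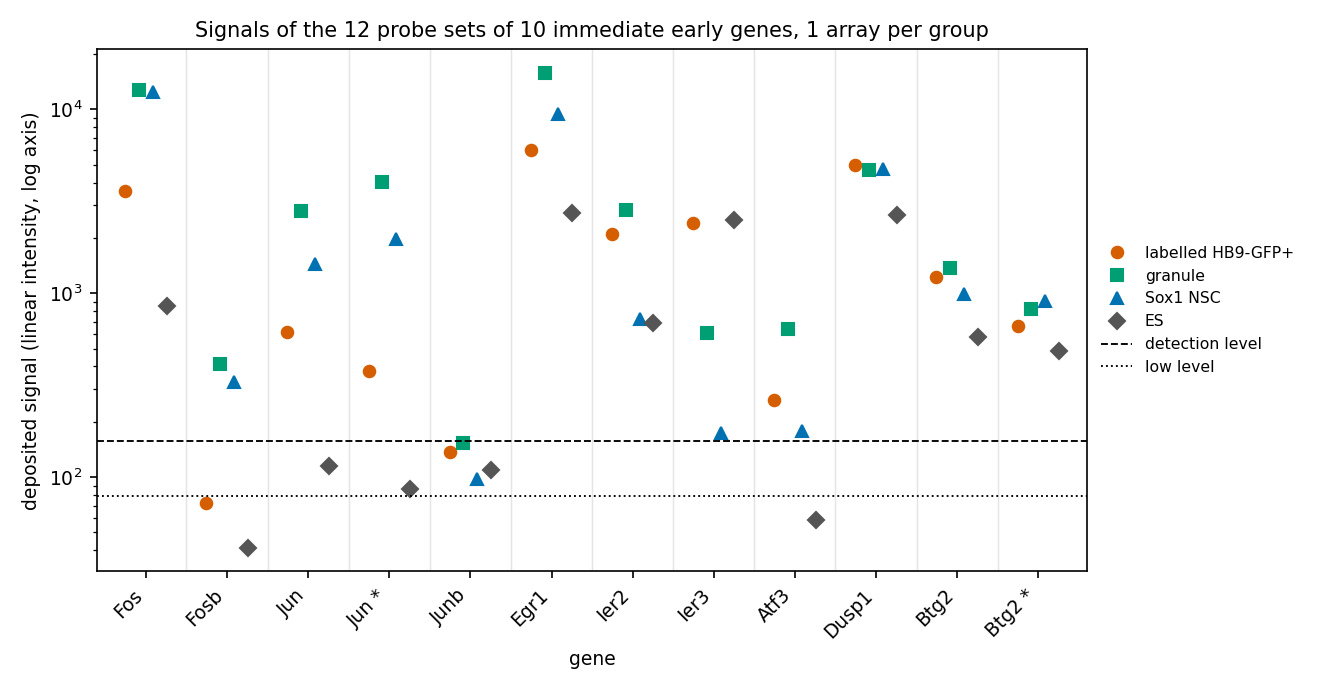
Deposited signal (linear intensity on a log axis) of the 12 probe sets of the 10 genes on the 4 arrays, 1 point per array, with the detection level of 157.5 dashed and the low level of 78.8 dotted. An asterisk marks the second probe set of Jun and of Btg2. The ES array has the lowest point for Fos, Jun, Egr1, Atf3, Dusp1 and Btg2, Ier3 is high on the HB9-GFP+ and ES arrays, and all 4 Junb points lie under the detection level.

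The promoters of the AP-1 genes Fos and Jun are shown because these are the members called higher on each of the other 3 arrays than on the ES array. They run from 250 bases before to 50 after the start site annotated by RefSeq on GRCm38.p6, 5′ to 3′. Capitals mark matches to the motifs searched on both strands, which were TGACGTCA (the cAMP response element bound by CREB), TGANTCA (the AP-1 site), the CArG box of SRF, TATAAA (the TATA box) and GGGCGG (the GC box).
Fos (chr12:85473640-85473939, plus strand): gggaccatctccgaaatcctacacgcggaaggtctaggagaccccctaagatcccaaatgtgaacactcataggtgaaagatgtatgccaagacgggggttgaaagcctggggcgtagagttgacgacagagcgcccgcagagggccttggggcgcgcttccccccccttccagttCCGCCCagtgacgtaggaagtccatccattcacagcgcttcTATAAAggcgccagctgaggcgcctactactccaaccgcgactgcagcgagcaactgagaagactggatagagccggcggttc
Jun (chr4:95052173-95052472, minus strand): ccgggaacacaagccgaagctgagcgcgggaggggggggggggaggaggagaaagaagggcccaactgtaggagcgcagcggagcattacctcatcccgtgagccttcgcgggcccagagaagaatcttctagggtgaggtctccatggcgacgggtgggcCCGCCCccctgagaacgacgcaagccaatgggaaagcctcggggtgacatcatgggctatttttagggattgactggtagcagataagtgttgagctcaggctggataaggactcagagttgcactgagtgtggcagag
In these windows Fos holds 1 TATA box and 1 GC box, and Jun holds 1 GC box. Among all 32851 promoters of the table, 13.6% hold the TATA box letters and 35.7% the GC box letters. No marked matches overlapped in these windows. A match is a run of letters and not a measured binding site, and a site that differs from these letters is not marked.

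Fos, the partner that gives AP-1 its strongest dimers with Jun, had a signal of 3609.5 on the HB9-GFP+ labelled array, 12716.3 on granule, 12435.5 on Sox1 and 853.8 on ES. The granule and Sox1 arrays were alike and the ES array was far below all others. Fos was 14.9-fold higher on the granule array and 14.6-fold higher on the Sox1 array than on the ES array, with log2 differences of 3.90 and 3.86. The log2 difference between the granule and Sox1 arrays was 0.03, under the probe-set SD of 0.62. On the array labelled HB9-GFP+ Fos was 4.23-fold higher than on the ES array, a log2 difference of 2.08, and 3.52-fold lower than on the granule array, which is short of a call. With quantile normalization the first of these was short too, at 1.98, and the second became a call, at -2.23.

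Jun, the other AP-1 partner, was measured by 2 probe sets. The one that represents it had 615.8 on the HB9-GFP+ labelled array, 2804.2 on granule, 1436.2 on Sox1 and 115.1 on ES. The other had 376.8, 4016.1, 1963.3 and 86.2 in the same order. Both place the arrays in the order granule, Sox1, HB9-GFP+ and ES, and neither was detected on the ES array, so no fold against it is given. The log2 differences from the ES array, which measure against a signal between the low and the detection level, were 2.42 for the array labelled HB9-GFP+, 4.61 for granule and 3.64 for Sox1. Their sizes rest on that undetected signal. Jun was 4.55-fold lower on the array labelled HB9-GFP+ than on the granule array. Against the Sox1 array it was 2.33-fold lower on that probe set, with a log2 difference of -1.22, while the other probe set gave -2.38 and would be called.

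Fosb, a Fos relative known in neurons for its slow-turnover isoform, was also higher on the granule and Sox1 arrays than on the others. It had 72.1 on the HB9-GFP+ labelled array, 410.7 on granule, 328.7 on Sox1 and 41.4 on ES. It was detected on the granule and Sox1 arrays and lay under the low level on the others. It was therefore at least 5.21-fold higher on the granule array and at least 4.17-fold higher on the Sox1 array than on the ES array. The same bounds apply against the array labelled HB9-GFP+, where Fosb was called lower than on both neural arrays. These calls lie close to the threshold. The log2 difference of Sox1 over ES, 2.06, was 1.99 after centring on reference genes and 1.95 with a low level taken without the array labelled HB9-GFP+. The log2 difference of HB9-GFP+ over Sox1 was -1.88 with quantile normalization and -1.99 after that centring, and that of HB9-GFP+ over granule was -1.97 with quantile normalization.

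Egr1, the zinc finger activator of growth factor and synaptic responses, had 6030 on the HB9-GFP+ labelled array, 15764 on granule, 9478.2 on Sox1 and 2718.8 on ES. It was detected on every array, and the granule array was highest. It was 5.80-fold higher on the granule array than on the ES array, which is a call. Over the ES array, the Sox1 array was 3.49-fold higher and the array labelled HB9-GFP+ 2.22-fold higher, and neither is a call.

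Atf3, a stress-induced factor of the ATF/CREB family that can repress its targets, had 261.5 on the HB9-GFP+ labelled array, 637 on granule, 177.5 on Sox1 and 58.6 on ES. It was undetected on the ES array only, where it lay under the low level. It was at least 8.09-fold higher on the granule array than there and 3.59-fold higher on granule than on Sox1, where its signal was little above the detection level. Over ES, the array labelled HB9-GFP+ was at least 3.32-fold higher and the Sox1 array at least 2.25-fold higher. Neither is a call, although a floor of log2 5 raised the first log2 difference to 2.16.

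Ier2, whose product acts in the nucleus as an early regulator of transcription, differed between the neural arrays. It had 2099.5 on the HB9-GFP+ labelled array, 2823.9 on granule, 725 on Sox1 and 685.5 on ES. The Sox1 and ES arrays were alike, with a log2 difference of 0.08, under the probe-set SD of 0.56. The granule array was 4.12-fold higher than the ES array, which is a call, and 3.90-fold higher than the Sox1 array, just short of one. So Fos, Fosb and Jun were called higher on both neural arrays than on the ES array, where 3.56% of detected genes were, and Egr1, Ier2 and Atf3 on the granule array, with no call between granule and Sox1 for any member.

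Ier3, whose product modulates survival and stress signalling, ran against the other members, and its promoter is shown beside theirs for that reason, with the same marking.
Ier3 (chr17:35821463-35821762, plus strand): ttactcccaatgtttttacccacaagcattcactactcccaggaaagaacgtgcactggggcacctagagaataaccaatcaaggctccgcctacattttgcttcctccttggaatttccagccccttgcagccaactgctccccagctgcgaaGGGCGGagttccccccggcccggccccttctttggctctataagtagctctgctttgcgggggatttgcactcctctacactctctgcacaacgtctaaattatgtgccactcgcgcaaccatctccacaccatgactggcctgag
The window holds 1 GC box and no match to the other motifs. Ier3 had a signal of 2411.4 on the HB9-GFP+ labelled array, 608.4 on granule, 174.7 on Sox1 and 2492 on ES. The HB9-GFP+ labelled and ES arrays were alike and high, the Sox1 array was barely above detection and the granule array lay between. Ier3 was 14.3-fold lower on the Sox1 array than on the ES array, the 69th lowest log2 difference of 10532 genes, at -3.83. It was 4.10-fold lower on the granule array than on the ES array. It was 13.8-fold higher on the array labelled HB9-GFP+ than on the Sox1 array and 3.96-fold higher there than on the granule array, just short of a call. Centring on reference genes ended the call of granule over ES, with a log2 difference of -1.25.

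Dusp1 and Btg2 varied least among the detected members. Their promoters are shown because both hold the cAMP response element letters TGACGTCA, which 1.79% of all promoters in the table hold and none of the other 6 members matched there does.
Dusp1 (chr17:26508423-26508722, minus strand): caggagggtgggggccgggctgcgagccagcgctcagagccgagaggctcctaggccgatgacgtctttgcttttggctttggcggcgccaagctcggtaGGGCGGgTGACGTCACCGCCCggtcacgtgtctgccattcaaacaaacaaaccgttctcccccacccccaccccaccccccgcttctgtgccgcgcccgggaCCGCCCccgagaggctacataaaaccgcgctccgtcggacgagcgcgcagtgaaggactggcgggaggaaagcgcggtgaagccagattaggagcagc
Btg2 (chr1:134079106-134079405, minus strand): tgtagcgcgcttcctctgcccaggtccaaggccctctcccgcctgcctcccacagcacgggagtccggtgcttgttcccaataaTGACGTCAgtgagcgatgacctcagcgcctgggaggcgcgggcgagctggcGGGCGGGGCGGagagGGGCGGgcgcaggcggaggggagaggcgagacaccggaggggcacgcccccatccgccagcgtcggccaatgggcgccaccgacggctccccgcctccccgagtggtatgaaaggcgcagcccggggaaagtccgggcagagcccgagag
Each also holds 3 GC box matches, and in Btg2 some of them overlap each other. The CArG box letters occur in 1.63% of all promoters and the AP-1 letters in 7.81%, and neither was found in a member's window. This says nothing about sites in the window with other letters, about sites outside it or about the factors. RefSeq's table held a promoter for 8 of the 10 members, and Egr1 and Ier2 are named only.

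Dusp1, the MAP kinase phosphatase, had 4965.7 on the HB9-GFP+ labelled array, 4663.1 on granule, 4716.5 on Sox1 and 2665.9 on ES. The first 3 arrays were within 0.10 log2 units of each other and the ES array was lower. The folds over the ES array were 1.86 for HB9-GFP+, 1.75 for granule and 1.77 for Sox1. The signs among the first 3 arrays turned with quantile normalization or centring on reference genes, so no order is given for them. Btg2, an antiproliferative gene of the BTG/TOB family and a p53 target that marks neuron-producing divisions, had 1230.6, 1371.8, 991.2 and 578.9 in the same order of arrays, and its second probe set had 662.2, 823.6, 906.3 and 483.1. Both probe sets were lowest on the ES array, and they disagreed on which array was highest. The folds of the first over the ES array were 2.13, 2.37 and 1.71, so neither gene was called in any comparison, although centring on reference genes brought Btg2 in granule over ES to 2.03, a call.

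**Figure D2:**
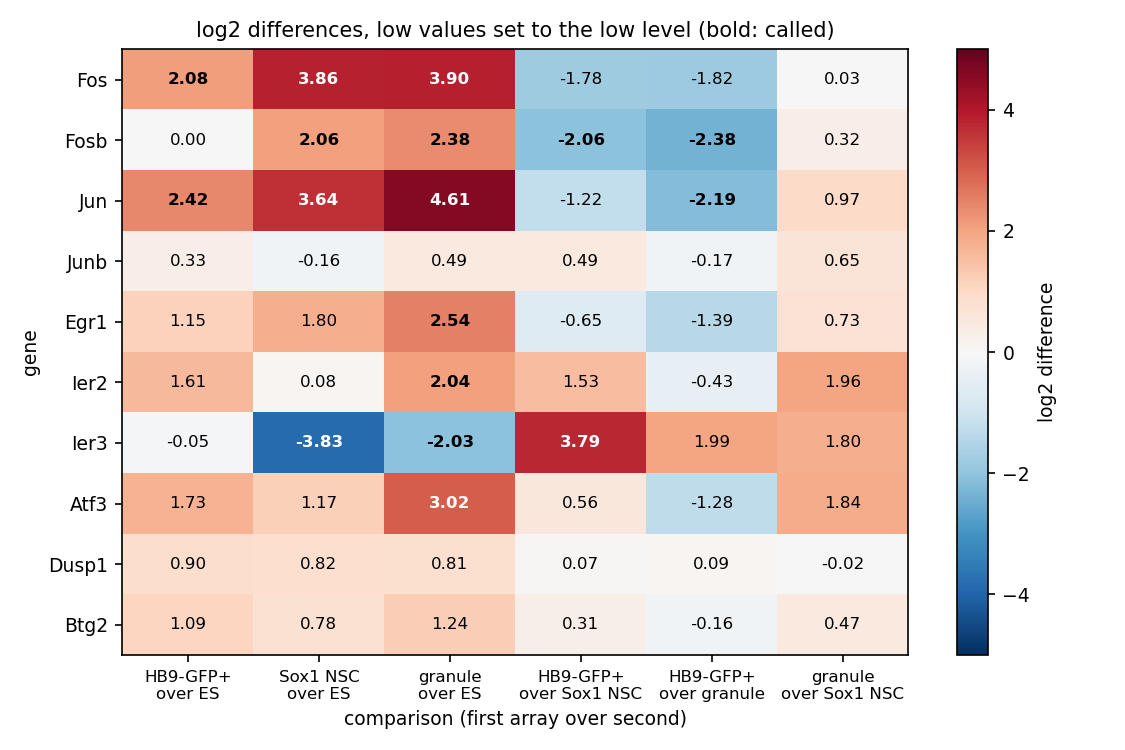
Log2 difference of each gene (rows) in each of the 6 comparisons (columns, first array over second), with values under the low level set to it, red for higher and blue for lower. Bold values are calls. In granule over ES, Jun reaches 4.61 and Fos 3.90 while Ier3 is at -2.03, and in granule over Sox1 no value is bold.

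Counted over the members, the HB9-GFP+ labelled array over ES gave 2 of 10 called higher, Fos and Jun, and 0 lower. Among all 10117 genes detected there, 2.00% were called higher and 1.46% lower. The median log2 difference of the 10 members was 1.12, against 0.04 over all detected genes, and 6 members were at least 1 log2 unit higher, as 1210 of the 10117 detected genes were. Of the 10 members, 8 were detected in this comparison and 9 in each of the others. Undetected members are kept in the members' counts and medians throughout, while the shares and medians of all genes leave undetected genes out. Fos and Jun were the only members called higher than ES on all 3 other arrays, as 0.320% of the detected genes were.

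Sox1 over ES gave 3 of 10 called higher, Fos, Fosb and Jun, and 1 lower, Ier3. Over all 10532 detected genes 6.20% were called higher and 5.21% lower. The members' median log2 difference was 1.00, against -0.02 over all detected genes. Granule over ES gave 6 of 10 called higher, Fos, Fosb, Jun, Egr1, Ier2 and Atf3, and 1 lower, Ier3. Over all 10970 detected genes 11.3% were called higher and 8.27% lower, and the median was 2.21 for the members against -0.09 for all. These comparisons and the one above share the ES array, so they are not independent. Centring on reference genes moved the median of all genes for granule over ES to 0.78, and the members' median to 2.87. It moved the share of all calls that were higher from 57.8% to 81.8%.

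Against the other arrays, HB9-GFP+ over Sox1 gave 1 member called higher, Ier3, and 1 lower, Fosb, where 5.58% and 6.89% of the detected genes were called. HB9-GFP+ over granule gave 0 members called higher and 2 lower, Fosb and Jun, where 9.21% and 12.3% of the detected genes were called. The members' median log2 differences were 0.19 and -0.86, against 0.04 and 0.13 over all detected genes. Granule over Sox1 gave no call among the members, where 6.39% of genes were called higher and 3.65% lower, and the members' median was 0.69, against -0.07 over all detected genes. Beyond the calls, 8 of the 9 members detected in that comparison had a difference above 0, against 46.9% of all detected genes. Fos at 0.03, Fosb at 0.32 and Btg2 at 0.47 are among them, all under the probe-set SD of 0.62. The second probe set of Btg2 gave -0.14. Ier2, Atf3 and Ier3 differed by 1.80 to 1.96 log2 units. Centring on reference genes made the last 3 calls, and it moved the share of all calls that were higher from 63.6% to 83.5% in this comparison and from 42.7% to 19.3% in HB9-GFP+ over granule.

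**Figure D3:**
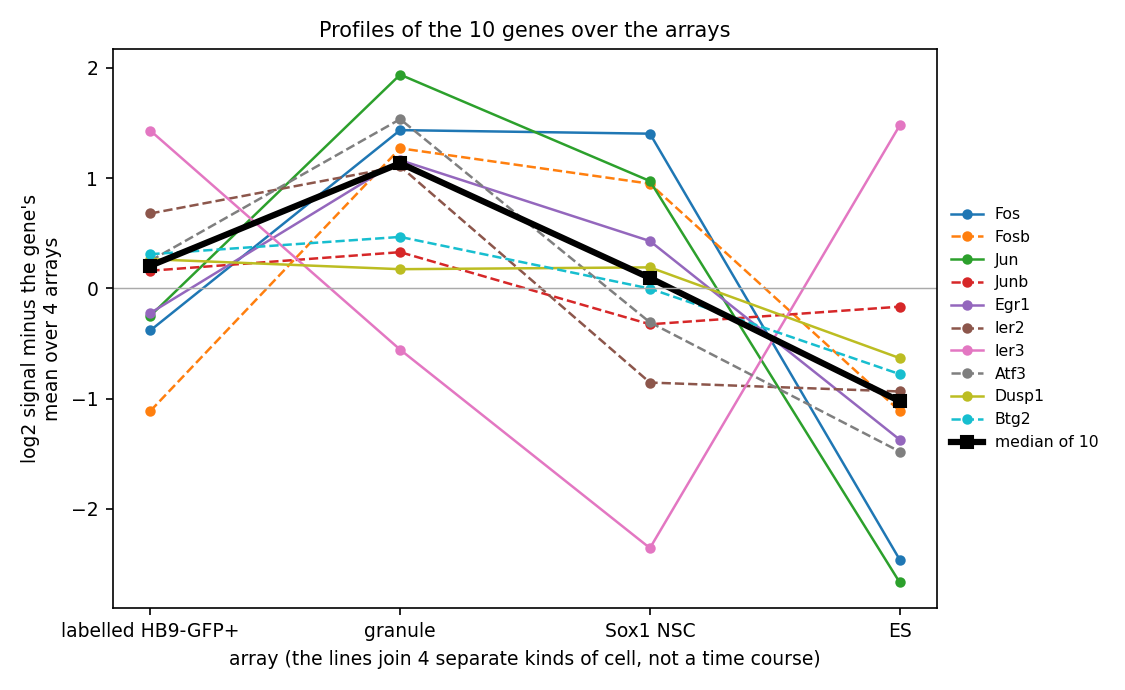
Log2 signal of each gene minus its own mean over the 4 arrays, with values under the low level set to it, for the 10 genes (thin lines) and their median (thick black line). The lines join separate kinds of cell and are no time course. The median is at 1.14 for granule and -1.02 for ES, and Ier3 runs opposite, at -0.56 and 1.48.

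Centred on its own mean, the median profile of the members was 0.21 on the HB9-GFP+ labelled array, 1.14 on granule, 0.10 on the Sox1 array and -1.02 on the ES array. Egr1 lay nearest to it, at a Euclidean distance of 0.65 log2 units over the 4 arrays, and Ier3 farthest, at 4.08. Of the 11571 genes detected on at least 1 array, the 8 nearest that are not members were Abhd12, Thtpa, Mxd3, Ehd3, Spring1, Fads2, Zfp35 and Vps4a, at distances of 0.22 to 0.34. Abhd12, a lipid hydrolase gene, had 544.4, 970.5, 507.8 and 231.7 in that order of arrays. Likeness over 4 values is loose, and genes outside the early response reached it more closely than any member did.

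Other early response genes were examined in fixed lists of AP-1 relatives, transcription factors, feedback and signalling genes, secreted factors and neuronal activity genes, together 80 measured genes that are not members. Granule over ES gave 13 higher and 4 lower, Sox1 over ES 7 higher and 7 lower, and HB9-GFP+ over ES 2 higher and 0 lower. Among all detected genes the shares called higher and lower, which also apply to each list below, were 11.3% and 8.27% in granule over ES, 6.20% and 5.21% in Sox1 over ES, and 2.00% and 1.46% in HB9-GFP+ over ES. The count of 2 in 80 for HB9-GFP+ over ES is near its share. The medians of the 80 were 0.04, 0.00 and 0.01, beside -0.09, -0.02 and 0.04 over all detected genes. Of the 80, 61 were detected in granule over ES, 56 in Sox1 over ES and 56 in HB9-GFP+ over ES. The undetected ones are kept in these counts and medians, where a gene under the low level on both arrays enters as 0. The shares and medians of all genes leave undetected genes out. Those called higher on both neural arrays than on the ES array were Egr2, Egr3, Ier5, Nr4a2, Nr4a3 and Rgs2. Nr4a3, an orphan nuclear receptor, lies outside the rule for naming genes and is named after its values were seen, which were 5.9 on the HB9-GFP+ labelled array, 472.6 on granule, 354.7 on Sox1 and 9.4 on ES.

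Among 17 other early transcription factors, 4 were called higher and 2 lower in both granule over ES and Sox1 over ES. Egr2, a zinc finger relative of Egr1, had 242.1 on the HB9-GFP+ labelled array, 2706.5 on granule, 2210.1 on Sox1 and 44.6 on ES. It was at least 34.4-fold higher on the granule array and at least 28.1-fold higher on the Sox1 array than on the ES array, and its other probe set gave log2 differences of at least 4.91 and at least 4.45. Egr3 had 45.9, 2001.6, 969.5 and 5.2 in the same order of arrays, and its other probe set was below the detection level on every array. Nr4a2, a relative of Nr4a3, had 128.6, 2407.3, 519.4 and 58.7, and it was the only one of the 17 called between granule and Sox1, at 4.63-fold. Its other probe sets gave smaller differences, up to 2.55 for granule over ES against 4.93 on the first, and at most 1.04 for Sox1 over ES, short of a call, and these differences too are bounds set by the low level. For granule over Sox1 its other detected probe sets gave 1.64 and 1.46, also short of a call. The called-lower pair was Klf2 and Klf4, Krüppel-like factors that also belong to the ES cell network. Klf4 had 10033.7, 1578.9, 1399 and 10449.7 in the same order of arrays. Klf2 had 4250 on the HB9-GFP+ labelled array, 160.2 on granule, 165.8 on Sox1 and 1831.6 on ES. Like Ier3, both were higher on the HB9-GFP+ labelled and ES arrays than on the granule and Sox1 arrays. Klf2 is also among the pluripotency markers above.

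**Figure D4:**
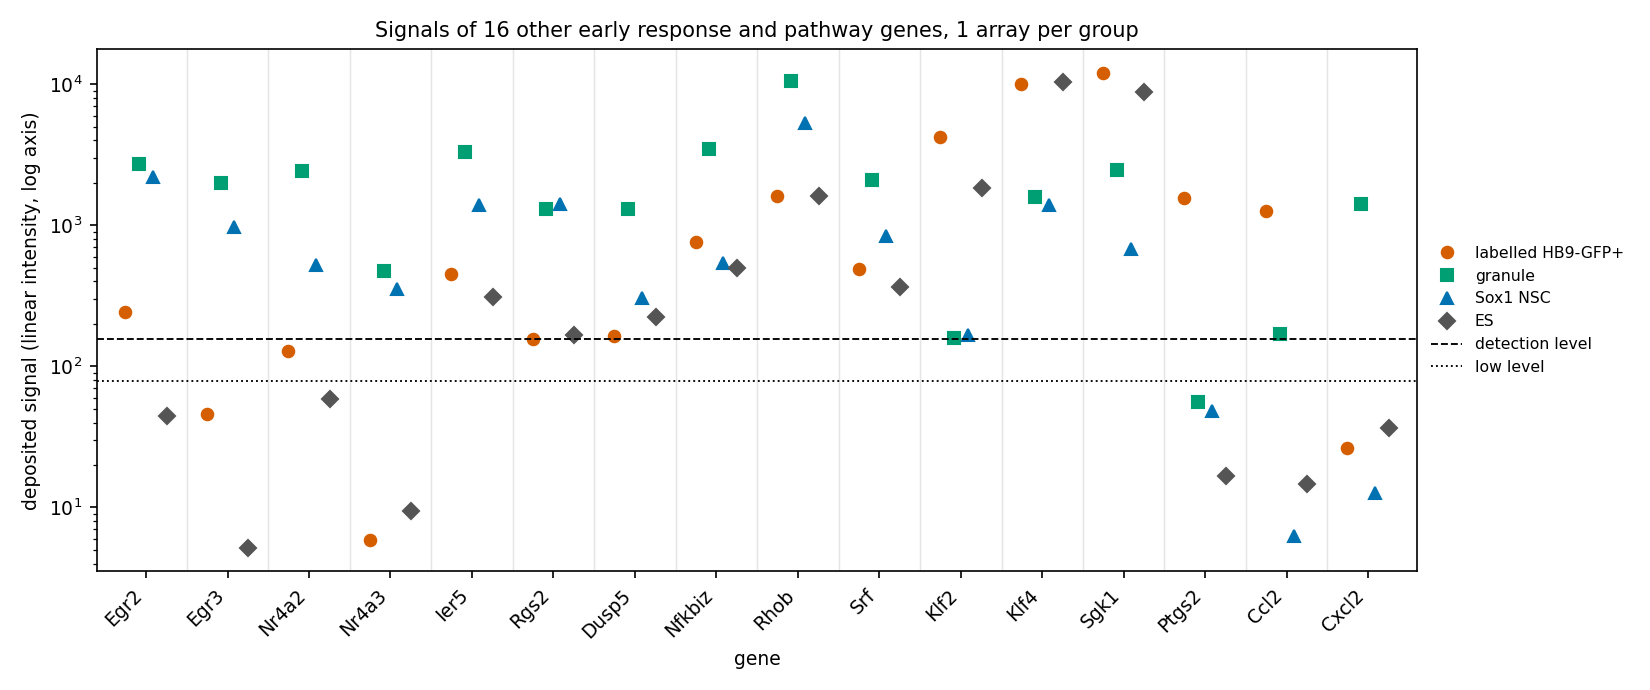
Deposited signal (linear intensity on a log axis) of 16 further early response and pathway genes on the 4 arrays, 1 point per array, with the detection and low levels as lines. The genes were picked for display after their values were seen. Egr2, Egr3, Nr4a2, Nr4a3 and Ier5 are highest on the granule array, Klf2, Klf4 and Sgk1 are higher on the HB9-GFP+ and ES arrays than on the other pair, and Ptgs2 and Ccl2 are highest on the array labelled HB9-GFP+.

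Of the 10 AP-1 relatives, only Fosl2 was called, higher on the granule array, at 392.2, against 79 on Sox1 and 13.6 on ES, and its other probe set was undetected on these 3 arrays. Of 29 feedback and signalling genes, granule over ES had 5 higher and 0 lower, led by Ier5, a relative of Ier2. Ier5 had 448.3 on the HB9-GFP+ labelled array, 3322.4 on granule, 1392.5 on Sox1 and 309.8 on ES, and was 10.7-fold higher on granule than on ES. Of its other probe sets, 1 gave a log2 difference of at least 2.99 for granule over ES and the other was undetected. For Sox1 over ES the first of these gave at least 1.23, short of a call. Rgs2, which limits G protein signalling, had 156.2, 1300.9, 1420.1 and 167.8 in the same order, 7.75-fold higher on granule and 8.46-fold higher on Sox1 than on ES. Its other detected probe sets gave log2 differences of 2.06 to 2.51 over ES, where they were undetected. Sox1 over ES had 2 higher, Ier5 and Rgs2, and 3 lower, Sgk1, Gadd45b and Socs3, the last of which the naming rule does not reach. Sgk1, a kinase gene of the serum and glucocorticoid response, was 12.8-fold lower there, with 683.5 on Sox1 and 8750.7 on ES. HB9-GFP+ over ES had no call among these 29.

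The secreted early genes showed the only calls of the wider lists in HB9-GFP+ over ES. Of 13 measured, 2 were higher, Ptgs2 and Ccl2. Ptgs2, the inducible prostaglandin synthase, had 1555.8 on the HB9-GFP+ labelled array, 56.2 on granule, 48.5 on Sox1 and 16.8 on ES. It was at least 19.8-fold higher on the array labelled HB9-GFP+ than on the ES array, and at least 1.16 log2 units higher on its other probe set, which is no call. Ccl2, a monocyte chemokine, was at least 16.02-fold higher there, at 1261.9 on the HB9-GFP+ labelled array against 14.7 on ES. The chemokine gene Cxcl2 was instead detected on the granule array only, at 1408.4.

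Of 17 measured genes upstream of the early response, granule over ES had 2 higher and 1 lower. Srf, which encodes the factor that binds the CArG box, had 487.5 on the HB9-GFP+ labelled array, 2077.8 on granule, 833.7 on Sox1 and 365.2 on ES, and was 5.69-fold higher on granule than on ES. Its other probe set was undetected on those 2 arrays. Mapk10, the neuronal Jun kinase, was at least 45.9-fold higher on granule than on ES (its second detected probe set gave at least 3.47 on the log2 scale), and Map2k1 was 5.32-fold lower. The neuronal activity genes had 4 of 14 higher in granule over ES, namely Egr3 and Nr4a2 as above, Nrn1 and Scg2. Arc and Npas4, early genes of synaptic activity, had no call, and are named outside the rule after their values were seen. Arc had 117.4 on the HB9-GFP+ labelled array, 109.8 on granule, 6.2 on Sox1 and 230.5 on ES, and Npas4 was undetected on all 4.

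Stress pathways that can induce some members were examined in lists of their own. Heat shock genes had 0 of 12 higher and 4 lower in granule over ES, with a median log2 difference of -1.06, beside -0.09 over all detected genes. After centring on reference genes 1 was lower, as 4.44% of detected genes were, and their median was -0.27, beside 0.78 over all detected genes. Targets of p53, which also induces Btg2, had 0 of 14 higher and 3 lower there, with a median of -1.74, which centring made -1.003. Genes of the Atf4 pathway, which can induce Atf3, had 1 of 13 higher and 3 lower there, with a median of -0.32. Centring turned that median to 0.41, while it moved the median of all detected genes from -0.09 to 0.78. The Atf4 pathway genes had no call in HB9-GFP+ over ES, where their median was 0.71. The other measured genes of the BTG/TOB family, 3 in number, had no call in any comparison.

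Markers of other cells and RNA quality also differed between the arrays, and their part in the values above was not tested. Of 16 fibroblast markers, the HB9-GFP+ labelled array had 15 detected, granule 10, Sox1 6 and ES 5. Their summed signals were 35456.1, 21868.3, 24846 and 10300.2 in the same order, and 23366.8, 9538.7, 3161.1 and 2272.4 without Vim, a gene of many cell types that was left out after its values were seen. Of 16 microglial, endothelial and astrocyte markers, 4, 9, 1 and 5 were detected, with summed signals of 1279.2, 20915.6, 762.9 and 1804.5. On the granule array these included the microglial gene Csf1r at 4072.5 and the astrocyte gene Gfap at 2224.6. The ratio of 3' to 5' signal of the actin control was 2.77 on the HB9-GFP+ labelled array, 2.29 on granule, 5.08 on Sox1 and 4.55 on ES. That of the Gapdh control was 1.37, 2.70, 3.68 and 1.99.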

How the data were processed

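The authors deposited 1 table of linear intensity values for 45101 probe sets on 4 arrays. GCRMA is named, with no version, in the submitters' processing notes, but each array's mean, trimmed by 2% at each end, was 500.0, so the step that scaled the deposited intensity values is uncertain. Genes were named from the platform annotation table, and all 10 members matched a RefSeq gene ID of GRCm38.p6. Of several single-symbol probe sets of a gene, the brightest by mean log2 signal stood for it. Symbols of 4 list genes were updated through RefSeq synonyms (Ccn1, Ccn2, Mrtfa and Mrtfb). The list entries Blbp and Cpg15 were synonyms of Fabp7 and Nrn1, already in the same lists, and were merged with them. List genes without a single-symbol probe set were not analysed here. Each array's median log2 value was taken, and their mean, 6.30, set the low level. No p-value or SE was computed, since each group has 1 array, and precision is limited by the number of arrays. The call rule was run on simulated data with shifts well past the threshold, which checks the code and not the error of these calls.

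Genes named are the 10 members, up to 4 called genes of largest difference per list and comparison, and the 8 genes nearest to the members' median profile, with exceptions said in place. The members and lists were chosen with earlier results of these data known. The alternatives were 7 fixed ones and 2 added after seeing the data, namely leaving out the HB9-GFP+ array and choosing probe sets by linear mean. Analyses used Python 3.11.15, numpy 2.4.6, pandas 2.3.3 and matplotlib 3.10.9.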

Additional observations from a re-analysis of the deposited data

How the results depend on the processing

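No paired analysis was possible because each group has 1 array. No call of a member changed sign under the alternatives run, which were a floor of log2 5, a stricter detection level, quantile normalization, centring on 9 reference genes, the mean over probe sets, leaving out _s_at and _x_at probe sets and a 2-fold threshold, with leaving out the HB9-GFP+ array and choosing probe sets by linear mean added after seeing the data. A 2-fold threshold, which by construction calls more, gave 6 members higher in HB9-GFP+ over ES, 5 higher in Sox1 over ES, 2 higher and 3 lower in HB9-GFP+ over Sox1, 1 higher and 5 lower in HB9-GFP+ over granule, and 3 higher in granule over Sox1. At that threshold 1210 of 10117 detected genes were higher in HB9-GFP+ over ES. The shares of detected genes were 19.0% higher in Sox1 over ES, 19.9% higher and 20.0% lower in HB9-GFP+ over Sox1, 26.9% higher and 26.6% lower in HB9-GFP+ over granule, and 17.8% higher in granule over Sox1. Quantile normalization gave 1 higher in HB9-GFP+ over ES, 1 higher in HB9-GFP+ over granule and 0 lower in HB9-GFP+ over Sox1. The shares of detected genes so called under it were 2.24%, 11% and 5.93% in the same order. Centring on reference genes gave 3 higher in granule over Sox1, 0 lower in HB9-GFP+ over Sox1, 5 lower in HB9-GFP+ over granule and 0 lower in granule over ES. After centring, the shares of detected genes so called were 11%, 7.58%, 20.2% and 4.44% in the same order. Probe sets chosen by linear mean gave 2 lower in HB9-GFP+ over Sox1, where 7.05% of detected genes were called lower. The added call comes from the second Jun probe set. Apart from that, the cause was not tested. The shares of all calls that were higher moved from 57.7% to 67.7% in HB9-GFP+ over ES with quantile normalization. Folds against an undetected signal are bounds or are not given. This holds for Fosb on the HB9-GFP+ and ES arrays, for Atf3 and Jun on the ES array, and for Junb.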
